A study of Mus musculus with 1203 samples.

Results

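The gasdermin genes Gsdmc, Gsdmc2, Gsdmc3, Gsdmc4 and Gsdmd were followed across single cells of the mouse colon. They are 5 of the 46609 entries of the deposited table, which lists 46517 genes and 92 spike-in entries, and they were chosen by symbol with their measured levels in these cells already known. Their levels are therefore given as descriptions, without tests. Cells had been sorted by flow cytometry into plates from female mice aged 11 weeks, after staining for the epithelial surface protein EPCAM and for SIGLEC-F, a surface protein of tuft cells, and copied by a modified Smart-seq2, which gives full-length cDNA of polyadenylated RNA from each well. The mice were labelled Villin-Cre; IPMKf/f, in which Cre made in intestinal epithelial cells deletes floxed alleles of Ipmk, the gene for inositol polyphosphate multikinase, or wild type. Wells carry the label tuft or epithelial, and the sources used here do not give the gate behind the epithelial label.

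Well titles give 7 plate sets. Plate sets 2, 4, 5 and 7 are labelled conditional knockout and plate sets 1, 3 and 6 wild type, so genotype and plate set cannot be told apart. Animals are not named in the labels, so each genotype counts as 1 sample, and every SD below is the spread between plate sets, which may be technical. Levels are in TPM, which scales each gene by its length and every cell to the same total, and the read depth behind them is unknown. Of 1203 wells, 856 held at least 1000 genes above 0 TPM and were kept. No 2 kept cells had identical columns. A single ribosomal RNA entry, Rn18s-rs5, took 76.4% of the TPM of a kept cell on average.

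Gasdermins are pore-forming proteins held inactive by their own C-terminal domain. When a protease cuts the linker, the freed N-terminal domain inserts into the plasma membrane, lets cytokines out and can end in pyroptosis, a lytic form of cell death. Gsdmd is the substrate of inflammatory caspases downstream of inflammasomes. The Gsdmc genes are a cluster of near-identical copies that has been reported to be raised by type 2 cytokines in the mouse intestine.

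All 5 genes lie on chromosome 15 (GRCm38, GENCODE M21). On the minus strand, Gsdmc (ENSMUSG00000079025) spans chr15:63775968-63808759, Gsdmc2 (ENSMUSG00000056293) chr15:63824346-63845177, Gsdmc3 (ENSMUSG00000055827) chr15:63857724-63878558 and Gsdmc4 (ENSMUSG00000055748) chr15:63891264-63912297. Gsdmd (ENSMUSG00000022575) lies apart on the plus strand at chr15:75862327-75867408. Pseudogenes Gsdmcl1, Gsdmcl2 and Gsdmcl-ps sit between or beside the Gsdmc copies on the plus strand. The first 120 coding bases of the 4 Gsdmc genes show how alike they are, with the 15 positions at which any copy differs in capitals.
Gsdmc: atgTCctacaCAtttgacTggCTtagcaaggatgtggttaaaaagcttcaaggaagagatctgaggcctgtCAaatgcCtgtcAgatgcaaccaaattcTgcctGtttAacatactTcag
Gsdmc2: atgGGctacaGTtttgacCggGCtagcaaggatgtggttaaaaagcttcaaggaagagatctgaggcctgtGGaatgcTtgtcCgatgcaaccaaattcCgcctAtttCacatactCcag
Gsdmc3: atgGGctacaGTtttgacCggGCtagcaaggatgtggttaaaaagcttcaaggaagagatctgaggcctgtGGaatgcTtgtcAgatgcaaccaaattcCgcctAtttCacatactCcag
Gsdmc4: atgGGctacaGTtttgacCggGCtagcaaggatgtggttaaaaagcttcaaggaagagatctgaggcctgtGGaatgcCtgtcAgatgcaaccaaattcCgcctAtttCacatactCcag
In this stretch Gsdmc3 differed from Gsdmc2 at 1 position and from Gsdmc4 at 1 position, while Gsdmc differed from the other copies at 13 to 15.

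Over the aligned coding bases, Gsdmc2 and Gsdmc3 were 97.1% identical, and Gsdmc4 was 93.7% identical to Gsdmc2 and 93.8% to Gsdmc3. Gsdmc was 86.7% to 87.5% identical to the other copies, and Gsdmd 53.03% to 54.97% identical to the Gsdmc genes. In windows of 50 bases, 47.7% of the Gsdmc2 transcript, 46.6% of Gsdmc3, 38.6% of Gsdmc4 and 16.4% of Gsdmc were shared with another Gsdmc gene or pseudogene. With windows of 150 bases these shares were 12.3%, 21.9%, 9.30% and 3.15%. Gsdmd shared none at either length. Read length is unknown here. The split of reads among the Gsdmc copies is therefore uncertain, and the sum of the 4 genes is used as the main value.

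The promoter table of RefSeq (GRCm38.p6) holds 1 of the 5 genes, Gsdmc3, at chr15:63878509-63878808 on the minus strand, shown here because the copies were seen together in single cells. It runs from 250 bases before the gene start to 50 after it, and capitals mark the only match to the motif TATAA.
Gsdmc3 promoter: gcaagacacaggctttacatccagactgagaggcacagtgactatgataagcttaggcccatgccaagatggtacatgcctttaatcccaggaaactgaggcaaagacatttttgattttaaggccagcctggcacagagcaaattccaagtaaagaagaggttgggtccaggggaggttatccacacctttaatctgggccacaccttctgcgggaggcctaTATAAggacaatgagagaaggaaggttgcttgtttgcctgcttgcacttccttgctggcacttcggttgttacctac
The match starts at position -27 relative to the gene start, and 24.9% of the 32851 promoters of the same length hold TATAA on either strand. The STAT-type palindrome TTCNNNGAA, its STAT6-type form with 1 more base between the arms, and the CDX2-type letters TTTATNG, each searched on both strands, were not found in this window. Among all promoters they occur in 8.30%, 6.95% and 10.9%. These are matches of letters only.

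Cells were divided by 3 marker genes. Krt20 cells had Krt20, a keratin of mature surface epithelium, at 20 TPM or more, and numbered 71 under the conditional knockout label and 63 in wild type. Marker-positive tuft cells had Trpm5, the tuft cell cation channel, at 50 TPM or more with Dclk1, a tuft cell kinase, at 100 TPM or more, and numbered 480. The remaining cells, 27.6% of those kept, met neither rule, and numbered 25, 28, 29 and 11 in plate sets 2, 4, 5 and 7 and 18, 36 and 89 in plate sets 1, 3 and 6. The 6 cells that met both rules were kept apart. Of the Krt20 cells, 100 carried the tuft label and 34 the epithelial label, though none met the rule for tuft cells. Some still held tuft markers. Their sum reached 100 TPM in 7 of the 48 Krt20 cells with a Gsdmc gene and in 9 of the 86 without. All 13 colonocyte markers, Krt20 itself among them, averaged at least 10 TPM in Krt20 cells, and their sum was 8752 to 19770 TPM by plate set, against 438.1 to 1887 TPM in remaining cells and 14.8 to 243.7 TPM in marker-positive tuft cells. All 10 tuft markers averaged at least 10 TPM in marker-positive tuft cells. The remaining cells are a mixture: summed goblet cell markers ranged over plate sets from 45.4 to 4033 TPM and immune markers from 0.356 to 3003 TPM. Median genes detected were 2428.5 in Krt20 cells, 2972.5 in remaining cells and 2647.5 in marker-positive tuft cells.

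Gsdmd was the gasdermin found in most cells, and it was highest in Krt20 cells. It was above 0 TPM in 78.4% of Krt20 cells (exact 95% interval 70.4 to 85.002), in 50.0% of remaining cells (43.4 to 56.6) and in 40.4% of marker-positive tuft cells (35.99 to 44.96). These intervals cover the counting of cells only, and the cells of a plate set share their source. Among cells with the gene, its median was 34.4 TPM in Krt20 cells, 14.6 TPM in remaining cells and 13.3 TPM in marker-positive tuft cells.

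**Figure D1:**
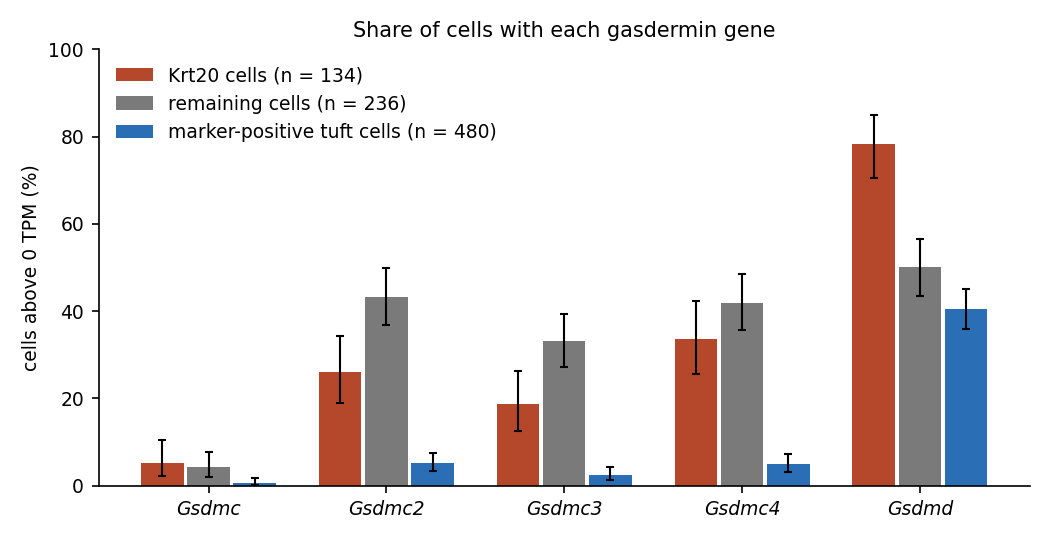
Share of cells above 0 TPM for each gasdermin gene in Krt20, remaining and marker-positive tuft cells, in percent, with exact 95% intervals as error bars. Gsdmd was found in 78.4% of Krt20 cells, and Gsdmc2, Gsdmc3 and Gsdmc4 in larger shares of the remaining cells than of the Krt20 cells.

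Krt20 cells of plate sets 2, 4, 5 and 7, labelled conditional knockout, averaged 43.4, 34.9, 43.6 and 26.8 TPM of Gsdmd, and those of the wild type plate sets 1, 3 and 6 averaged 41.2, 30.4 and 28.2 TPM. In the same order, remaining cells averaged 19.4, 7.89, 9.87 and 7.58 TPM under the conditional knockout label and 9.24, 12.03 and 11.6 TPM in wild type. Marker-positive tuft cells averaged 5.24, 9.82, 9.73 and 4.77 TPM under the conditional knockout label and 12.03, 9.93 and 5.46 TPM in wild type. The lowest Krt20 value lay above the highest value of either other class, while remaining and marker-positive tuft cells overlapped.

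Averaged over the 7 plate sets, Gsdmd stood at 35.5 ± 7.26 TPM in Krt20 cells, 11.1 ± 4.04 TPM in remaining cells and 8.14 ± 2.91 TPM in marker-positive tuft cells (SD between plate sets). On the log2(mean TPM + 1) scale, taken within plate sets, Krt20 cells exceeded marker-positive tuft cells by 2.04 ± 0.44 and remaining cells by 1.63 ± 0.42 (SD), each in 7 of 7 plate sets. Remaining cells exceeded marker-positive tuft cells by 0.41 ± 0.74, in 5 of 7 plate sets. Within the Krt20 cells, mean Gsdmd was 41.5 TPM in the 16 cells with Krt20 from 20 to below 40 TPM, 22.4 TPM in 48 cells from 40 to below 100, 23.9 TPM in 25 cells from 100 to below 200 and 53.7 TPM in the 45 cells at 200 TPM or more. It was highest in the cells with most Krt20 but did not climb step by step, and those cells had a median of 3774 detected genes, against 1761 to 1965.5 in the others. Just outside the limit, the 16 kept cells with 10 to below 20 TPM of Krt20 that were not marker-positive tuft cells averaged 21.6 TPM of Gsdmd and 52.9 TPM of summed Gsdmc genes. The 16 cells just inside averaged 109.2 TPM of summed Gsdmc genes, of which 2 cells with 964.4 and 624.6 TPM held 90.9%, and the other 14 averaged 11.3 TPM. A Gsdmc gene was found in 31.3% of the cells just inside and 43.8% of those just outside.

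The 4 Gsdmc genes together were found in fewer cells, at levels that differed far more from cell to cell. At least 1 of them was above 0 TPM in 48 Krt20 cells (35.8%, exact interval 27.7 to 44.6), in 51.3% of remaining cells (44.7 to 57.8) and in 37 of 480 marker-positive tuft cells (7.71%, 5.49 to 10.5). Where present, their median sum was 154.9 TPM in Krt20 cells, 60.8 TPM in remaining cells and 15.8 TPM in marker-positive tuft cells. Remaining cells thus most often had a Gsdmc gene, and the Krt20 cells that had one carried more of it.

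In the same order of plate sets, the sum in Krt20 cells averaged 2.69, 70.5, 311.2 and 77.5 TPM under the conditional knockout label and 32.1, 19.9 and 68.8 TPM in wild type. Remaining cells averaged 76.6, 41.4, 41.3 and 64.01 TPM under the conditional knockout label and 102.5, 39.4 and 88.2 TPM in wild type. Marker-positive tuft cells averaged 19.8, 32.8, 0.196 and 0 TPM under the conditional knockout label and 5.19, 5.35 and 7.82 TPM in wild type. Plate set 5 was high and plate set 2 low among the Krt20 cells, so this class overlapped both others.

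Krt20 cells exceeded marker-positive tuft cells by 2.86 ± 3.46 (log2, SD between plate sets) in 6 of 7 plate sets, with plate set 2 at -2.50 and plate set 5 at 8.03. Against remaining cells the difference was -0.49 ± 2.25, higher in 3 and lower in 4 plate sets. Remaining cells exceeded marker-positive tuft cells by 3.35 ± 1.94, in 7 of 7 plate sets. In plate set 7 the 9 marker-positive tuft cells list all 4 genes at 0, and those of plate set 5 averaged 0.196 TPM of the sum. The size of both differences from marker-positive tuft cells, and of the 8.03 in plate set 5, thus depends on the added 1 TPM. Without plate set 2, the difference between Krt20 and marker-positive tuft cells was 3.75 and positive in every plate set left.

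**Figure D2:**
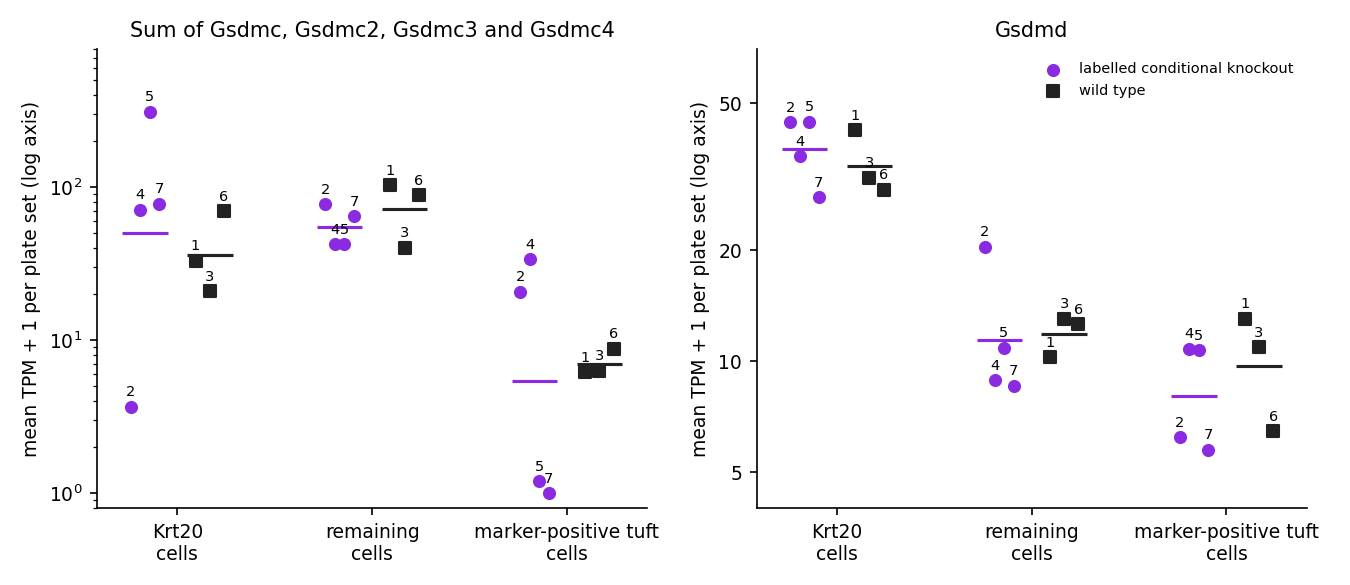
Mean TPM + 1 per plate set on a log axis for the summed Gsdmc genes and for Gsdmd in Krt20, remaining and marker-positive tuft cells, with plate set numbers, circles for plate sets labelled conditional knockout, squares for wild type ones, and bars at the mean of the log2 values. Gsdmd in Krt20 cells lay above all values of the other classes, while the summed Gsdmc genes of Krt20 cells reached from 2.69 TPM in plate set 2 to 311.2 TPM in plate set 5.

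A few cells carried most of the Gsdmc signal. The 5 highest Krt20 cells held 56.3% of the summed TPM of that class, and the highest, in plate set 5, had 4980 TPM. In remaining cells the 5 highest held 23.4%, with a maximum of 1084 TPM, and in marker-positive tuft cells 78.3%, with a maximum of 2143.5 TPM in 1 cell of plate set 4. That tuft cell had 6050 detected genes and 7124 TPM of colonocyte markers beside 8211 TPM of tuft markers. With the highest cell of each class and plate set left out, Krt20 cells exceeded marker-positive tuft cells by 3.16 (log2) for the summed Gsdmc genes and 1.90 for Gsdmd. Goblet cell markers also varied among the Krt20 cells, summing to 71.5, 4.48, 7769 and 105.6 TPM under the conditional knockout label and 3754, 24.2 and 1458 TPM in wild type. With the 46 cells left out that held at least 100 TPM of Muc2, Zg16 and Fcgbp together, the difference between Krt20 and marker-positive tuft cells was 2.81 for the summed Gsdmc genes and 1.89 for Gsdmd.

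Among the copies, Gsdmc4 and Gsdmc2 gave most of the transcripts. In Krt20 cells Gsdmc4 made up 57.8% of the summed TPM, Gsdmc2 32.4%, Gsdmc3 9.36% and Gsdmc 0.435%. Remaining cells held 43.2%, 42.2%, 14.3% and 0.297% in the same order. Levels per unit length can be compared between genes, but shared sequence limits how far the copies can be separated.

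Gsdmc4 in Krt20 cells averaged 2.69, 30.97, 181.1 and 59.5 TPM under the conditional knockout label and 16.7, 16.5 and 37.2 TPM in wild type, plate sets in the order above. Gsdmc2 averaged 0, 27.1, 106.2 and 13.5 TPM under the conditional knockout label and 7.82, 3.29 and 22.98 TPM in wild type. Gsdmc3 averaged 0, 12.5, 22.5 and 3.85 TPM under the conditional knockout label and 7.45, 0.147 and 8.36 TPM in wild type. All 3 copies were highest in plate set 5, and in plate set 2 the only copy above 0 was Gsdmc4, in 3 of 16 cells. Gsdmc, the most diverged copy, was above 0 in 7 Krt20 cells, 10 remaining cells and 3 of 480 marker-positive tuft cells, and never exceeded 1.48 TPM as a plate set mean. Means in Krt20 cells were 49.2 ± 60.9 TPM for Gsdmc4 and 25.8 ± 36.8 TPM for Gsdmc2 (SD over 7 plate sets). Gsdmc3 had 7.82 ± 7.88 TPM and Gsdmc 0.367 ± 0.547 TPM, so the spread between plate sets was wide. Within plate sets, Gsdmc4 lay above Gsdmc2 in every one. Gsdmc2 lay above Gsdmc3 in every plate set except plate set 2, where both were 0.

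In Krt20 and remaining cells the copies were mostly found together. Of the 35 Krt20 cells with Gsdmc2, 32 also had Gsdmc4, and all 7 with Gsdmc had Gsdmc2, Gsdmc3 and Gsdmc4 as well. Spearman's rho between Gsdmc2 and Gsdmc4 was 0.82 over the Krt20 cells (71 and 63 by label), 0.82 over the remaining cells and 0.57 over the 480 marker-positive tuft cells. Exactly 1 copy was seen in 14 of the 48 Krt20 cells with any, 2 copies in 11, 3 copies in 16 and 4 in 7. Among remaining cells with any, 21.5% held exactly 1 copy, while among the 37 marker-positive tuft cells with any, 23 did (62.2%). These points share library depth, and reads that fit several copies.

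Over the Krt20 cells the rho of Gsdmd with the summed Gsdmc genes was 0.07, and over remaining and marker-positive tuft cells 0.21 and 0.12. Gsdmd was above 0 in 41 of 48 Krt20 cells with a Gsdmc gene (85.4%) and in 64 of 86 without (74.4%), and these groups had medians of 3798 and 1862.5 detected genes. Among remaining cells the shares were 59.5% with a Gsdmc gene and 40.0% without, at medians of 3553 and 1907 detected genes. Among marker-positive tuft cells they were 59.5% with and 38.8% without, at medians of 4032 and 2539. The 5 cells with the most Gsdmd among Krt20 cells included 3 in which all 4 Gsdmc genes were listed at 0.

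**Figure D3:**
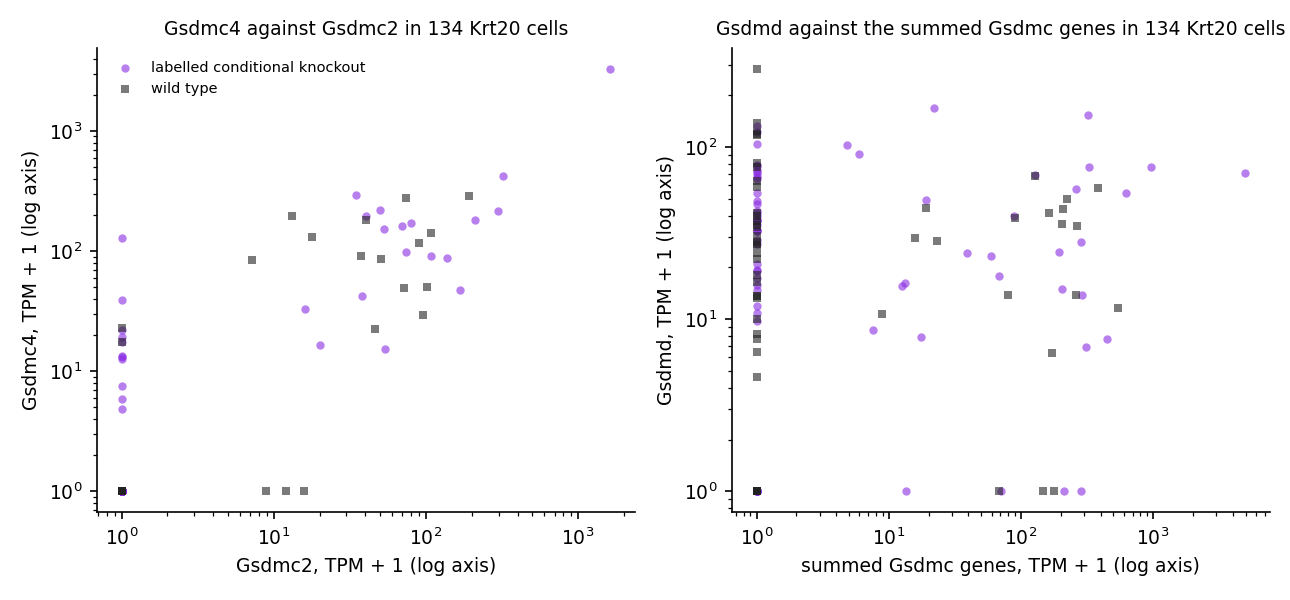
TPM + 1 on log axes in each Krt20 cell, for Gsdmc4 against Gsdmc2 on the left and Gsdmd against the summed Gsdmc genes on the right, with circles for cells labelled conditional knockout and squares for wild type cells. Of 35 cells with Gsdmc2, 32 also had Gsdmc4, while Gsdmd was spread over cells with and without a Gsdmc gene.

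Detection of the Gsdmc genes moved with the number of genes found in a cell. Among Krt20 cells with 1000 to below 2000 genes, 7 of 57 had a Gsdmc gene (12.3%), against 11 of 28 (39.3%) from 2000 to below 3000 and 30 of 49 (61.2%) at 3000 or more. In marker-positive tuft cells these shares were 0.746%, 4.19% and 16.2%, and in remaining cells 28.6%, 66.7% and 62.9%. Gsdmd was less tied to it, at 64.9%, 78.6% and 93.9% in Krt20 cells and 30.6%, 35.3% and 52.5% in marker-positive tuft cells. At each of the 3 steps Krt20 cells had Gsdmd more often than the other classes, and marker-positive tuft cells had a Gsdmc gene least often.

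**Figure D4:**
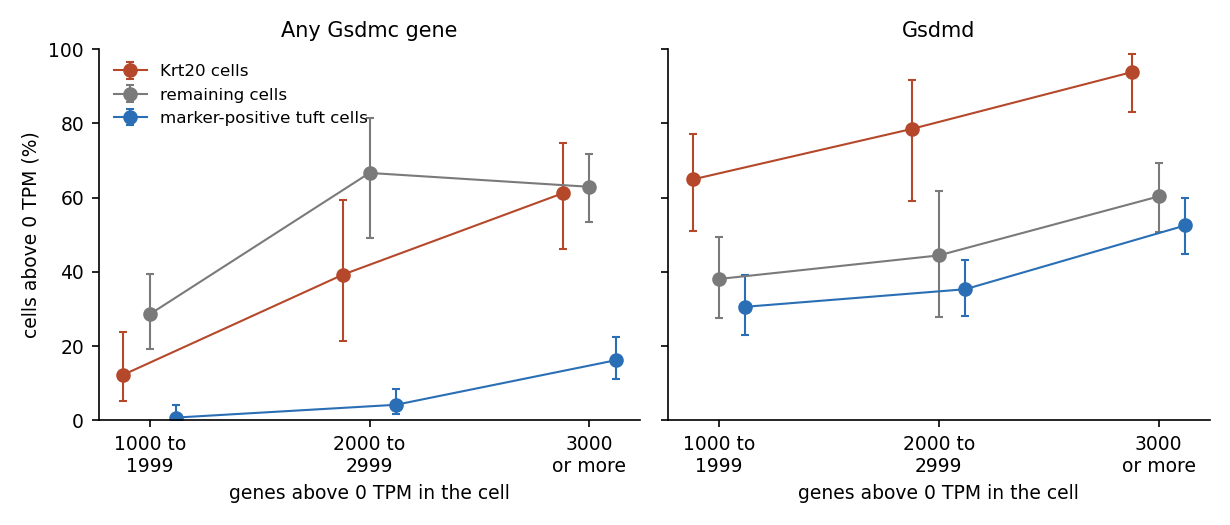
Share of cells above 0 TPM for any Gsdmc gene and for Gsdmd, in percent with exact 95% intervals, by the number of genes detected in the cell, for Krt20, remaining and marker-positive tuft cells. The share of Krt20 cells with a Gsdmc gene reached 61.2% at 3000 detected genes or more, and Gsdmd in Krt20 cells lay above the other classes at every step.

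Cells with a Gsdmc gene also carried more colonocyte markers in each class. The median sum of those markers was 14623 TPM in the 48 Krt20 cells with a Gsdmc gene and 5793 TPM in the 86 without. It was 500.1 against 72.5 TPM in remaining cells and 157.6 against 17.2 TPM in marker-positive tuft cells. General epithelial markers were higher with a Gsdmc gene too, at 2356 against 675.5 TPM in Krt20 cells and 940.6 against 561.9 TPM in remaining cells. In marker-positive tuft cells they were lower, at 1851 against 2885 TPM. As given above, cells with a Gsdmc gene also had more detected genes in each class. Tuft markers had a median of 777.2 TPM in the 37 marker-positive tuft cells with a Gsdmc gene and 1561 TPM in those without. How far carried-over RNA, a second cell in a well or the number of detected genes had a part in this was not tested.

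A rule of size was applied to every gene to give the background for these differences. Between classes a gene met it when it reached 10 TPM in either class, differed at least 2-fold and kept its sign in all 7 plate sets. Between Krt20 and marker-positive tuft cells, 2768 genes reached 10 TPM, and 21.4% met the rule as higher and 16.7% as lower in Krt20 cells. Of the members, Gsdmd met it as higher, Gsdmc2 and Gsdmc4 reached 10 TPM without meeting it, and Gsdmc3 and Gsdmc did not reach 10 TPM. Against remaining cells the background was 16.2% higher and 11.5% lower, and Gsdmd again was the only member that met the rule. Between remaining and marker-positive tuft cells it was 15.3% higher and 14.5% lower, and Gsdmc2 and Gsdmc4 met it as higher in remaining cells. These calls depended on the settings: Gsdmc4 met the rule in 17 of 21 alternatives and Gsdmc2 in 20 of 21, and the sum of the 4 genes in 19 of 22. No other gasdermin of the table reached 10 TPM in any class: Dfna5, the table's name for Gsdme, averaged 1.69 ± 1.24 TPM in Krt20 cells, 1.15 ± 1.05 TPM in remaining cells and 0.477 ± 0.283 TPM in marker-positive tuft cells (SD, 7 plate sets). Gsdma, Gsdma2, Gsdma3 and Dfnb59 were listed at 0 in all Krt20 cells.

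Upstream of Gsdmd, 3 of the 13 inflammasome sensor and adaptor genes reached 10 TPM in Krt20 or marker-positive tuft cells. Of these, 2 met the rule as higher in Krt20 cells, beside 21.4% of all genes. Against remaining cells 1 met it as higher and 1 as lower, beside 16.2% and 11.5% of all genes. Naip1, a sensor of bacterial secretion needles, averaged 13.3 ± 3.07 TPM in Krt20 cells, 2.13 TPM in remaining cells and 0.113 TPM in marker-positive tuft cells, and met the rule against both. Nlrp6, a sensor made by gut epithelium, averaged 20.6 ± 13.02 TPM in Krt20 cells, 13.7 ± 5.62 TPM in remaining cells and 1.42 TPM in marker-positive tuft cells, and met it against the tuft cells. Pycard, the adaptor that links sensors to caspase 1, averaged 14.7 ± 6.76 TPM in Krt20 cells, against 37.02 ± 13.6 TPM in remaining cells and 6.46 TPM in marker-positive tuft cells, and met the rule as lower than in remaining cells. The sensor of cytosolic DNA Aim2 did not reach 10 TPM in any class and averaged 2.27 ± 2.17 TPM in Krt20 cells, 6.32 ± 11.6 TPM in remaining cells and 9.71 ± 14.2 TPM in marker-positive tuft cells. Nlrp3, a sensor of cell damage, was listed at 0 in all Krt20 and marker-positive tuft cells. Aim2 and Nlrp3 were chosen after their values were seen.

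Of the 10 proteases listed as cutting gasdermins, 3 reached 10 TPM in Krt20 or marker-positive tuft cells. Casp6 did not meet the rule, at 8.17 ± 5.64 TPM in Krt20 cells and 13.01 ± 5.07 TPM in marker-positive tuft cells. Casp1 and Casp8 met it as higher in Krt20 than in marker-positive tuft cells, beside 21.4% of all genes. Casp1, the caspase that cuts Gsdmd in inflammasomes, averaged 13.4 TPM in Krt20 cells, from 5.11 to 23.2 TPM by plate set, and 1.38 TPM in marker-positive tuft cells, a log2 difference of 2.56 ± 0.92. Casp8, reported to cut both Gsdmd and Gsdmc, averaged 13.2 ± 6.13 TPM in Krt20 cells and 5.15 ± 2.98 TPM in marker-positive tuft cells, a difference of 1.18 ± 0.71. Neither met the rule against remaining cells.

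The list of released cargo and rupture holds 6 genes, of which 2 reached 10 TPM in Krt20 or marker-positive tuft cells. In Krt20 cells 1 met the rule as higher, beside 21.4% of all genes. It was Il18, a cytokine that caspase 1 matures and Gsdmd pores release. Il18 averaged 14.7 ± 10.8 TPM in Krt20 cells, 4.38 ± 3.98 TPM in remaining cells and 0.195 TPM in marker-positive tuft cells. It was found in 18 Krt20 cells (13.4%) and did not meet the rule against remaining cells. Hmgb1, a chromatin protein released by lysed cells, averaged 14.7 ± 11.7 TPM in Krt20 cells and 35.9 ± 19.4 TPM in remaining cells. It met the rule as lower, as 1 of 3 genes of this list that reached 10 TPM, beside 11.5% of all genes. Irf1, an interferon-responsive transcription factor, averaged 29.7 ± 8.53 TPM in Krt20 cells and 12.2 ± 4.67 TPM in marker-positive tuft cells. Serpinb1a, an inhibitor of serine proteases that restrains inflammatory caspases, averaged 61.9 ± 39.1 TPM in Krt20 cells, 14.2 ± 8.95 TPM in remaining cells and 16.9 ± 3.79 TPM in marker-positive tuft cells, and met the rule against both. Against remaining cells it was 1 of 3 listed regulators at 10 TPM to meet it as higher, beside 16.2% of all genes.

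Of the 11 listed membrane repair genes, 6 reached 10 TPM in Krt20 or marker-positive tuft cells, and 1 of these, the membrane-binding annexin Anxa2, met the rule, beside the 21.4% of all genes that met it as higher. Anxa2 stood at 171.2 ± 52.5 TPM in Krt20 cells, 61.2 ± 20.4 TPM in remaining cells and 33.6 ± 15.6 TPM in marker-positive tuft cells, and met the rule against both. The type 2 cytokine route list holds 10 genes, of which 3 reached 10 TPM in Krt20 or marker-positive tuft cells. In Krt20 cells 1 of these met the rule as lower, beside 16.7% of all genes. It was Il13ra1, a chain of the receptor for IL-13 and IL-4, at 2.20 TPM against 13.6 ± 4.16 TPM in marker-positive tuft cells. Remaining cells averaged 4.54 ± 4.09 TPM of Il13ra1, which met the rule as lower than in tuft cells there too, beside 14.5% of all genes. Median log2 differences of Krt20 minus marker-positive tuft cells were 3.21 for the 3 sensor and adaptor genes that reached 10 TPM. They were 1.18 for the 3 proteases and 0.20 for the 6 repair genes that did, beside 0.02 over all 2768 genes. The sensor and adaptor genes, and Casp1 and Casp8, reached 10 TPM in Krt20 but not in marker-positive tuft cells. The floor thus favoured positive medians for these lists, and list genes below it are left out.

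**Figure D5:**
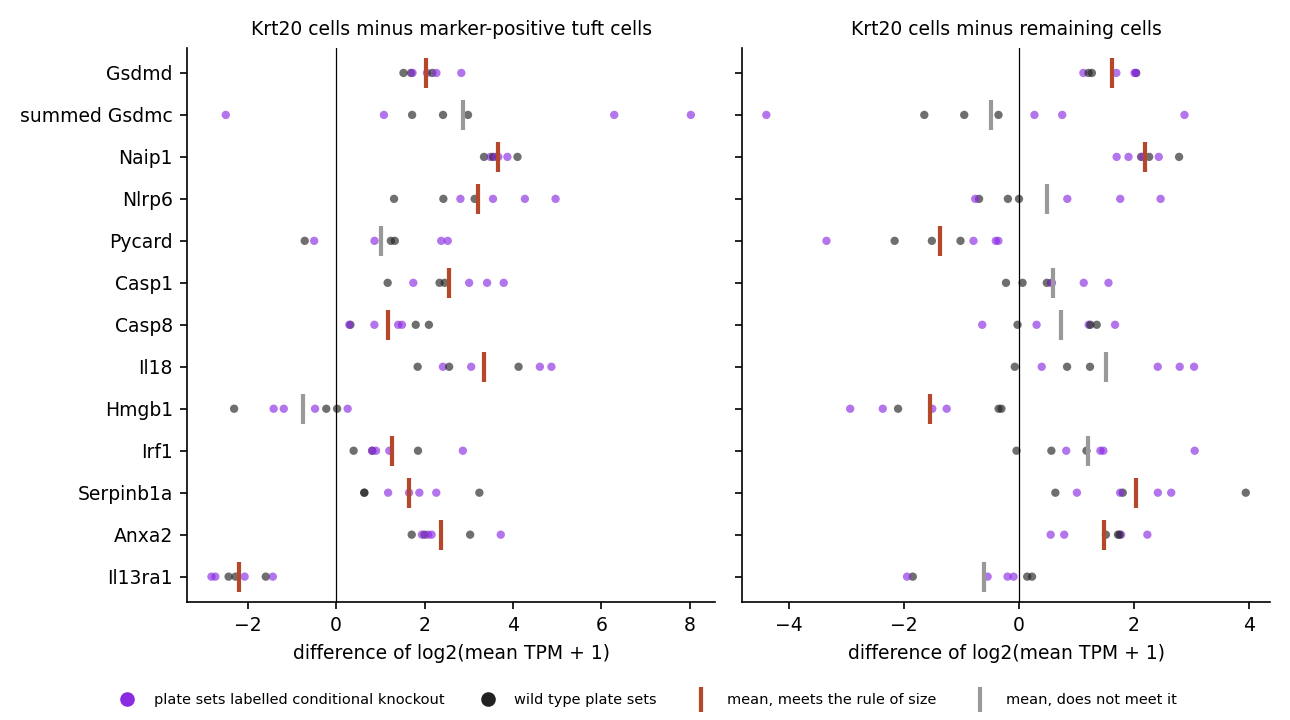
Differences of log2(mean TPM + 1) in each of the 7 plate sets for Gsdmd, the summed Gsdmc genes and 11 genes of the lists, for Krt20 cells minus marker-positive tuft cells on the left and minus remaining cells on the right, with circles coloured by genotype label and a bar at the mean. Gsdmd and Naip1 were above 0 in every plate set of both comparisons, and the summed Gsdmc genes spread from -2.50 to 8.03 against marker-positive tuft cells.

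Genes whose levels were most like those of the summed Gsdmc genes over the 21 means of plate set and class were Car2, a carbonic anhydrase, and Hao2, a hydroxyacid oxidase, both with a Spearman rho of 0.90. Cyc1 (0.88), Atp5a1 (0.86), Ppa2 and Gpx1 (both 0.84) and Acads and Pycard (both 0.83) were among those that followed. Over the single Krt20 cells Car2 (0.78) and Hao2 (0.76) again came first, then Hsd11b2 (0.73), Eef1a1, Gmds (both 0.71), Uqcrc1 (0.71), then Cyc1, Atp5a1, Sult1a1 and Krt19 (each 0.70), and the number of detected genes itself gave 0.47. For Gsdmd the nearest genes over the 21 means were Fam162a and Pdgfa (both 0.87), then Ceacam1, Rbp2 and S100a10 (each 0.86), and over single Krt20 cells Plekhf2 (0.50), Slc44a4 (0.49), Cdhr5 (0.48), Lypd8 (0.47) and Lgals4 (0.46), beside 0.25 for detected genes. Points of 1 plate set share their plates, and points of 1 class share the rule that defined it.

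The genotype labels were compared over plate sets, with no test. Ipmk itself, the targeted gene, had means of 47.5, 51.3, 30.1 and 15.7 TPM in Krt20 cells under the conditional knockout label, against 11.8, 10.7 and 13.6 TPM in wild type. In Krt20 cells it was thus higher, not lower, where conditional knockout is the label. In remaining cells Ipmk ranged from 2.47 to 9.24 TPM by plate set under that label and from 0.509 to 6.72 TPM in wild type. In marker-positive tuft cells it ranged from 1.08 to 12.7 TPM under that label and from 1.61 to 2.19 TPM in wild type, so the labels overlapped in both of these classes. The sources used here do not say which part of the gene the floxed alleles remove, so a value over the whole gene does not check the deletion, and the groups are called by their labels.

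Gsdmd in Krt20 cells averaged 37.2 ± 8.04 TPM in plate sets labelled conditional knockout (SD, n = 4) and 33.3 ± 6.95 TPM in wild type ones (SD, n = 3). The log2 difference of 0.15 was smaller than its SD of 0.31, and the groups overlapped. Over all genes that reached 10 TPM the median log2 difference was -0.06 in Krt20 cells, -0.17 in remaining cells and -0.21 in marker-positive tuft cells. In marker-positive tuft cells it averaged 7.39 ± 2.76 TPM in plate sets labelled conditional knockout and 9.14 ± 3.36 TPM in wild type ones, a difference of -0.28 with an SD of 0.51. Remaining cells had 11.2 ± 5.58 TPM under the conditional knockout label and 10.95 ± 1.497 TPM in wild type, a difference of -0.06 with an SD of 0.46.

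Among the Krt20 cells with the tuft label alone, Gsdmd averaged 43.96 ± 8.27 TPM under the conditional knockout label and 29.5 ± 5.16 TPM in wild type. These 4 and 3 values did not overlap, which also held for 9.47% of 2577 genes over all Krt20 cells. The log2 difference of Gsdmd, 0.56, was under the 1.5-fold limit. The 24 and 10 Krt20 cells with the epithelial label gave 25.1 ± 11.8 TPM under the conditional knockout label and 65.7 ± 67.3 TPM in wild type, with 1 wild type plate set at 142.2 TPM.

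The summed Gsdmc genes in Krt20 cells averaged 115.5 ± 134.8 TPM under the conditional knockout label and 40.3 ± 25.5 TPM in wild type. Without the single well of plate set 5 with 4980 TPM, that plate set averaged 124.4 TPM and the label 68.8 ± 50.2 TPM. The difference of log2 values was 0.47 with an SD of 2.16, and the groups overlapped through plate set 2. Without plate set 2 it was 1.73, the 3 values then lay above the 3 wild type ones, and without plate set 5 it was -0.41. With all plate sets, 9.47% of 2577 genes did not overlap between the labels in Krt20 cells, and 3 against 3 values separate more easily. In marker-positive tuft cells the sum averaged 13.2 ± 16.04 TPM under the conditional knockout label and 6.12 ± 1.48 TPM in wild type, yet the log2 difference was -0.38 with an SD of 2.08. Without the single well of plate set 4 with 2143.5 TPM, that plate set averaged 1.76 TPM and the label 5.45 ± 9.63 TPM, below the wild type mean. Remaining cells had 55.8 ± 17.5 TPM under the conditional knockout label and 76.7 ± 33.1 TPM in wild type, a difference of -0.39 with an SD of 0.58.

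A Gsdmc gene was found in 29 of 71 Krt20 cells labelled conditional knockout (40.8%) and 19 of 63 wild type ones (30.2%). Among remaining cells it was 43.01% under the conditional knockout label and 56.6% in wild type, and among marker-positive tuft cells 6.52% under that label and 8.45% in wild type. Median genes detected were 2202 in Krt20 cells labelled conditional knockout and 2450 in wild type ones. They were 2990 in remaining cells labelled conditional knockout and 2861 in wild type ones, where the Gsdmc share was lower under the conditional knockout label, and 2406.5 in marker-positive tuft cells labelled conditional knockout and 2745.5 in wild type ones. The part of these gaps in the shares was not tested.

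Between genotypes the rule of size asked for 10 TPM, a 1.5-fold difference and plate set values that do not overlap. In Krt20 cells 4.00% of 2577 genes met it as higher and 5.04% as lower under the conditional knockout label, and none of the 5 members did. The backgrounds were 0.973% and 1.34% of 2467 genes in remaining cells and 1.78% and 2.96% of 2301 genes in marker-positive tuft cells, again with none of the members. Without wild type plate set 3, however, Gsdmc2, Gsdmc3, Gsdmc4 and their sum met the rule as lower in remaining cells labelled conditional knockout. The sum stood at -0.81 there, and without plate set 2 Gsdmc2 met the rule as lower. The 1.34% above is not the background of these settings. Over all alternatives the count of genes lower there moved from 0.0303 to 8.21 times the main count. Of the listed genes, 3 met the rule in the main setting, all lower in Krt20 cells labelled conditional knockout. They were 1 of 3 regulators of Gsdmd, 1 of 1 type 2 route gene and 1 of 8 repair genes that reached 10 TPM. None of the 3 sensor and adaptor genes, 2 proteases and 2 cargo and rupture genes at 10 TPM met it. The share over all genes was 5.04%. How these 3 calls moved with the settings was not examined. Irf2, a transcription factor that drives Gsdmd expression, averaged 4.95 ± 2.11 TPM in these Krt20 cells under the conditional knockout label and 12.1 ± 3.51 TPM in wild type. Its log2 difference was -1.16 ± 0.45. Stat6, which carries the IL-4 and IL-13 signal to the nucleus, averaged 3.497 ± 1.78 TPM under the conditional knockout label and 11.7 ± 4.82 TPM in wild type. Pdcd6ip, an ESCRT-associated repair protein, averaged 16.2 ± 2.90 TPM under that label and 26.6 ± 7.40 TPM in wild type.

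The 6 cells that met both the Krt20 and the tuft rule were 3 labelled conditional knockout and 3 wild type. Of the 3 labelled conditional knockout, 2 held all 4 Gsdmc genes, with sums of 139.4 and 987.7 TPM, and both also held Gsdmd, at 24.3 and 59.1 TPM. All 5 genes were listed at 0 in the third and in the 3 wild type cells.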

How the data were processed

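Single colon cells of female mice were profiled by a modified Smart-seq2, 1 well per sample. The deposited values are TPM, made by the authors with Bowtie2 2.4.2 and RSEM 1.3.3 on build mm10, per the submitters' processing notes; the sources used here do not give the annotation release, strand handling or read depth. Such values carry no depth, and RSEM divides reads among near-identical copies by a model. The entry Rn18s-rs5 took 76.4% of TPM on average, which lowers all other values. Wells were grouped by the labels; 38 columns of a near-empty plate were not used. No doublet caller was run.

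Means over the cells of each class and plate set were taken (at least 3 cells), and log2(mean TPM + 1) was compared within plate sets between classes and across plate sets between genotypes. That scale understates differences of low genes. The fold limits were 2 between classes and 1.5 between genotypes, with a floor of 10 TPM, applied to all genes in Python 3.11.15 with pandas 2.3.3 and checked on simulated data. Shares carry exact Clopper-Pearson 95% intervals from SciPy 1.17.1. Coding sequences were aligned with Biopython 1.88. Named are the 5 members, list genes that reached 10 TPM or met the rule, with the largest levels and differences as examples, and the 10 and 5 genes most like them, some of which are not reported here. Members, lists, classes and alternatives were chosen with earlier results of these data known.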

Additional observations from a re-analysis of the deposited data

Results flagged for a closer look

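In groups of 4 plate sets, Dixon's test marked 3 plate set means as standing far from the others, among 36 groups examined. Chance marks about 1 in 20 groups of continuous values, a rate that does not hold where most values are 0. For both Gsdmc means marked, the other 3 plate sets were at 0, so any value above 0 would have been marked. Only the conditional knockout label has 4 plate sets, and wild type groups of 3 were not examined. Gsdmc averaged 0.101 TPM in marker-positive tuft cells of plate set 4, through 1 cell, and was listed at 0 in the other 3 plate sets labelled conditional knockout. Wild type plate set 6 averaged 0.0681 TPM there. Gsdmc averaged 0.434 TPM in remaining cells of plate set 2, through 2 cells, and was listed at 0 in the other 3 plate sets labelled conditional knockout. Wild type plate sets 1 and 6 averaged 0.784 and 0.257 TPM there. Gsdmc3 averaged 9.73 TPM in marker-positive tuft cells of plate set 4, where 1 cell held 649.1 TPM of it.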

How the results depend on the processing

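Across all alternatives run, Gsdmd met the rule of size as higher in Krt20 cells than in both other classes. With a pseudocount of 10 TPM its differences were 1.33 against marker-positive tuft cells and 1.11 against remaining cells. With Krt20 at 50 TPM or more the difference against remaining cells was 1.16, and with tuft-labelled wells alone 2.06. Its genotype difference in Krt20 cells was 0.68 as a mean of single-cell logs, 0.56 with tuft-labelled wells alone and -0.44 on the first plates alone; the cause was not tested. For the summed Gsdmc genes every alternative moved the value by less than the SD between plate sets, but that SD was wide and signs could change within it. The genotype difference in Krt20 cells ran from -0.41 to 2.06, and Krt20 minus remaining cells from -1.20 to 0.16. Without plate set 2 the sum met the rule for Krt20 minus marker-positive tuft cells and for the genotypes in Krt20 cells. Without plate set 3 it met the rule for the genotypes in remaining cells (-0.81). For remaining minus marker-positive tuft cells the rule was missed by Gsdmc2, Gsdmc4 and the sum with means of single-cell logs, by Gsdmc4 and the sum with a minimum of 2000 genes or Krt20 at 10 TPM, and by Gsdmc4 with a minimum of 500 genes. Leaving out 1 plate set at a time gave 1.91 to 2.13 (Gsdmd) and 2.00 to 3.75 (summed Gsdmc) for Krt20 minus marker-positive tuft cells, and 1.56 to 1.71 and -1.05 to 0.16 for Krt20 minus remaining cells. For the conditional knockout label minus wild type it gave 0.04 to 0.31 and -0.41 to 1.73 in Krt20 cells, and -0.57 to -0.06 and -1.27 to 0.43 in marker-positive tuft cells. Alternatives without the highest cell of each class and plate set, without the highest well of each class, and without cells rich in goblet genes, were added after seeing the data. Without the highest cells, the genotype difference of the summed Gsdmc genes in Krt20 cells was 1.18. Counts of genes meeting the rule moved with the settings, for genes higher in Krt20 than in marker-positive tuft cells from 0.391 to 1.65 times the 591 reported, and for genes lower there from 0.368 to 2.99 times. In Krt20 cells the genotype counts moved from 0.379 to 2.35 times (higher) and from 0.108 to 3.05 times (lower). In remaining cells they moved from 0.167 to 7.5 times (higher) and from 0.0303 to 8.21 times (lower). No paired analysis was possible because no label pairs samples of the genotypes and no plate set holds both; differences between classes were taken within plate sets. Read depth is unknown, so a gene listed at 0 may have been missed.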
